A study of Mus musculus with 2 samples.

Results

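The genes described here are 40 interferon-stimulated genes of the mouse, whose transcripts are known to be induced by type I or type II interferon. They were chosen by name, by a rule that uses no measured value, although the list was drawn up with earlier results of these data known. Every listed gene was found on the array by its symbol or a synonym. Where a gene had several probes, which was so for 10 of the 40, the probe with the highest mean intensity stood for it. Of the 40, 36 were measured, meaning that KO or WT RNA, or both, gave a signal well above background on each array. They stood among 14874 measured genes or transcripts in all. Cxcl10, Ifit1, Oas2 and Rsad2 were not measured.

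The study compared the RNA of CD4+ T cells that lack Lamtor1 (KO) with that of wild-type (WT) CD4+ T cells. Lamtor1 codes for the lysosomal anchor of the Ragulator complex, through which amino acids activate the kinase complex mTORC1. Per the labels' protocols, naive CD4+CD62L+ cells were taken from the spleens of C57BL/6J mice by magnetic sorting. A culture of 5 days followed, on plates coated with anti-CD3 and with anti-CD28 in the medium, to which 50 ng/ml of IL-2 and 1 ng/ml of human TGFβ were added, so both genotypes had the same stimulation and no interferon is named in the protocol. The extraction protocol speaks of naive cells, and the RNA was taken here to be that of the cultured cells. How Lamtor1 was deleted and how many mice gave cells are not given in the sources used here. Both RNAs were hybridised together on 2 Agilent 2-colour arrays, with KO in Cy5 and WT in Cy3 on the first and the dyes exchanged on the second. Both arrays carry the same pair of extracts, so there was 1 extract per genotype, no replicate check of any difference and no test. The number after ± is the SD between these technical repeats.

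Interferons are cytokines released when cells sense viruses, bacteria or misplaced nucleic acids. Type I interferons signal through the receptor chains Ifnar1 and Ifnar2 and the kinases Jak1 and Tyk2 to a complex that includes Stat2 and Irf9, which binds the interferon-stimulated response element (ISRE). Interferon gamma, the type II interferon made largely by T and NK cells, signals through Ifngr1 and Ifngr2 with Jak1 and Jak2 to the gamma-activated site (GAS) of its target genes; many genes respond to both, and the guanylate-binding proteins (Gbp) and immunity-related GTPases (such as Igtp and Irgm1) are among the strongest responders to gamma.

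The RefSeq table of promoters, on assembly GRCm38.p6, held 36 promoters of 29 of the 40 genes, each of 300 bases from 250 before to 50 after the annotated start of transcription. The core of the ISRE was searched as GAAA and GAAA with any 2 bases between them, and the GAS as TTC and GAA with any 3 bases between them, on both strands and with overlapping matches allowed. An ISRE core lay in promoters of 17 of the 29 genes (58.6%), against 3.99% of the 27025 genes in the whole table. Counted by promoter, 50.0% of the members' promoters held it, against 3.44% of all 32851. A GAS match lay in promoters of 8 of the 29 genes (27.6%), against 9.55% of all genes, or in 22.2% of the members' promoters against 8.30% of all promoters. The matches describe the list and not the knockout. Stretches upstream of the start are shown for 4 genes that were lower in the KO extract by the rule of size given further on (Bst2, Gbp2, Gbp3 and Trim30a), for Isg15, and for the gamma-responsive GTPases Igtp and Irgm1, whose ratios lay on opposite sides of 0 with loess normalisation. Letters run 5′ to 3′ on the strand of the gene, and capitals mark matches to either motif, joined where they overlap.
Bst2 (chr8:71537567-71537628, minus strand): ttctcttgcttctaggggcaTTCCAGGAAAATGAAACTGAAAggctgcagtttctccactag
Gbp2 (chr3:142620584-142620633, plus strand): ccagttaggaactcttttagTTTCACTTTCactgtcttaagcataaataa
Gbp3 (chr3:142559979-142560034, plus strand): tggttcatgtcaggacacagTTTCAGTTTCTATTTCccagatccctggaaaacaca
Trim30a (chr7:104465200-104465249, minus strand): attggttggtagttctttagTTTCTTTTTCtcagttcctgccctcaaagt
Isg15 (chr4:156200855-156200916, minus strand): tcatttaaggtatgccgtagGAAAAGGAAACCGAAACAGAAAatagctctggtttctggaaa
Igtp (chr11:58199491-58199551, plus strand): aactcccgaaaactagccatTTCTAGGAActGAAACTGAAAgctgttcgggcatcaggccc
Irgm1 (chr11:48871421-48871470, minus strand): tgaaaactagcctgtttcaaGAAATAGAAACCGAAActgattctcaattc

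Bst2 held overlapping ISRE cores joined to a GAS match, and Igtp held a GAS match directly before an ISRE core. Gbp2, Gbp3 and Trim30a held the ISRE core on the opposite strand, where it reads TTTC, 2 bases, TTTC. Irgm1 and Igtp thus both held an ISRE core close to the start, and their ratios differed in sign with loess but not with median centring, where Irgm1 had −0.31 and Igtp −1.53. By call, 5 of the 6 genes that were lower and have a promoter in the table held an ISRE core and 1 held a GAS match. Among the 20 that were measured and not called, 9 held an ISRE core and 7 a GAS match, and all 3 genes that were not measured and have a promoter there held an ISRE core. A match says only that the letters are present in this window.

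The arrays gave 43020 non-control spots each, none saturated. Between 43.7% and 51.7% of spots were well above background in a given RNA on a given array. Across genes, the log2 ratio on the first array and that on the second had r = 0.939, where genes are not independent replicates. The median technical SD of the log2 ratio was 0.11 over all measured genes and 0.11 over the 36 members, with 0.32 the highest among members. Lamtor1 itself had normalised intensities of 270 and 281 in KO against 1054 and 1071 in WT on the first and second array. Its log2 ratio of KO over WT was −1.95 ± 0.03, or 3.86-fold lower, from a probe at chr7:109060334-109060393 (mm9); whether that probe lies in the deleted part was not tested. A gene was called lower or higher in KO by its size alone: it had to be measured and to differ by 2-fold or more, in 1 direction, on the first array and on the second. This is the rule of size. By that rule 1024 measured genes were lower and 366 higher. With arrays centred on their median in place of loess, the median of all genes moved from −0.02 to −0.37 and the split became 881 lower and 111 higher. Members are therefore also given relative to all genes where that scaling matters.

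Of the 36 measured members, 8 (22.2%) fell in KO by the rule of size and 0 rose, against 6.88% of all measured genes that were lower and 2.46% that were higher. The 8 were Ifi27l2a, Bst2, Gbp2, Usp18, Gbp3, Ifih1, Dtx3l and Trim30a. At a threshold of 1.5-fold on both arrays, 15 (41.7%) were lower and 0 higher, against 13.5% and 6.78% of all measured genes. The log2 ratio lay below 0 on both arrays for 28 members (77.8%), against 44.3% of all genes, and above 0 on both for 5, against 38.6% of all genes. The remaining 3 had opposite signs on the 2 arrays. The median log2 ratio of the 36 was −0.57, beside −0.02 over all measured genes. It was −0.96 with the scanner software's processed signals or the deposited log ratios (all genes 0.04) and −0.88 with a normexp offset of 1 (all genes 0.00). Mx1 and Mx2, which have only a bound, lay below −0.57 by fitted ratio and by bound alike, so setting them at the bound could not move that median. In bulk RNA, fewer cells that carry a transcript and less transcript per cell cannot be told apart.

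**Figure D1:**
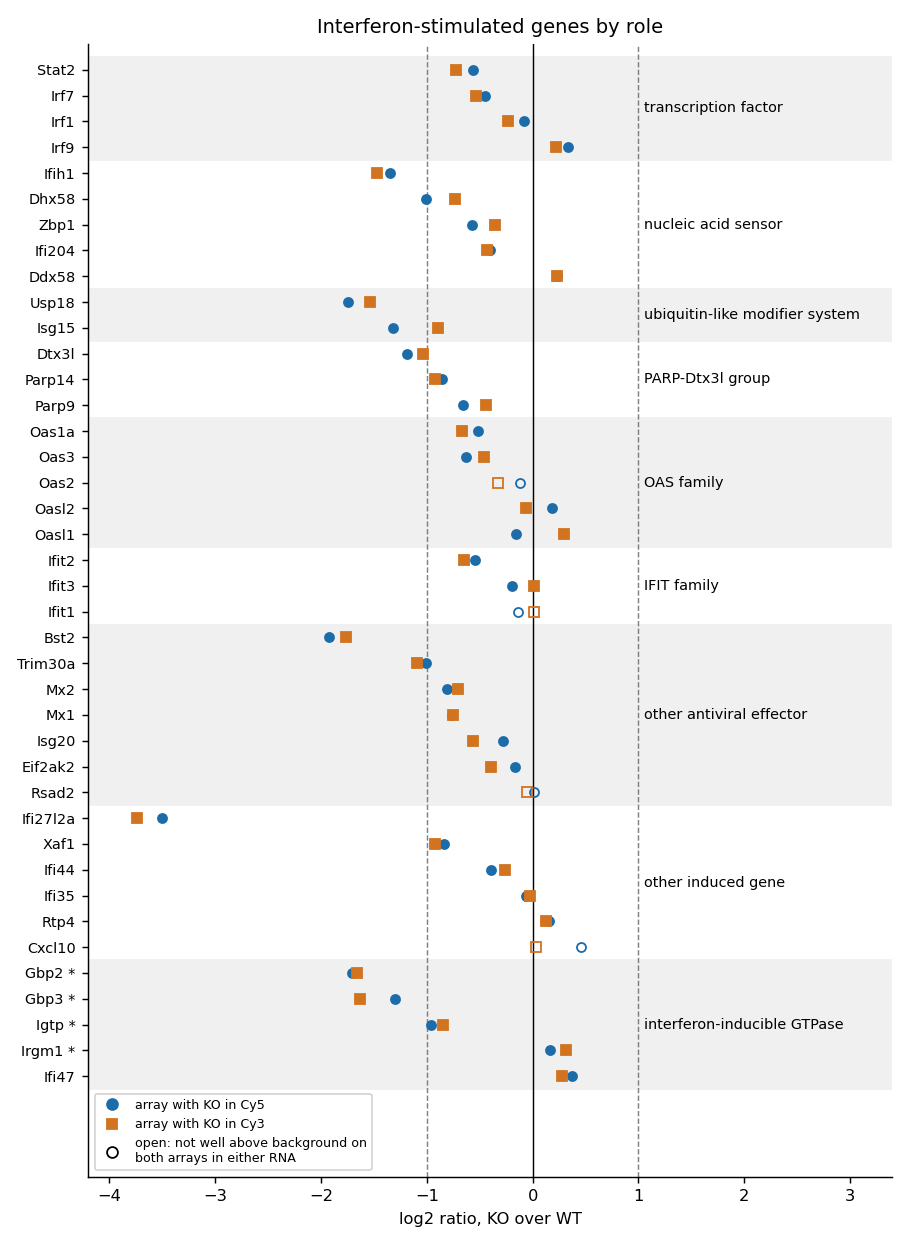
Log2 ratio of KO over WT for each of the 40 genes on each array, grouped by role; circles are the array with KO in Cy5, squares the array with KO in Cy3, open symbols mark genes not measured, asterisks mark the 4 gamma-responsive genes and dashed lines mark 2-fold. Ifi27l2a lies farthest to the left at −3.51 and −3.74, and no gene lies to the right of the upper 2-fold line.

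Ifi27l2a, which codes for a small interferon-inducible membrane protein, had the lowest ratio of the members. Its normalised intensity was 2846 and 2132 in KO on the first and second array, and 32356 and 28485 in WT. Both KO values lay far below both WT values. The log2 ratio was −3.62 ± 0.16, or 12.3-fold lower in KO, and ranked 3 from the lowest of the 14874 measured genes. Its probe lies at chr12:104680394-104680453 (mm9); close relatives of this gene exist, and no probe was checked for cross-hybridisation, so their share in this value is uncertain.

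Among the antiviral effectors, Bst2 (tetherin), which holds budding virus particles at the cell surface, fell by 1.85 ± 0.11 on the log2 scale, or 3.60-fold. Its normalised intensity was 672 and 722 in KO and 2556 and 2454 in WT, so that the values of the genotypes did not overlap. The probe lies at chr8:74058603-74058662 (mm9). Bst2 also marks plasmacytoid dendritic cells in mice, whose other markers are given further on.

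Trim30a, a tripartite-motif protein that dampens inflammatory signalling, had intensities of 290 and 303 in KO and 584 and 646 in WT. Its ratio of −1.05 ± 0.06, or 2.08-fold lower, lay just past the threshold. With median centring the mean ratio of Trim30a was lower, at −1.46. It was no longer called there, as the rule asks for 2-fold on each array. The Trim30a probe, at chr7:111557578-111557637 (mm9), lies 2.50 Mb from that of Lamtor1. Of the 62 measured genes within 3 Mb of Lamtor1 other than these, 9 (14.5%, beside 6.88% of all measured genes) were lower and 0 higher, and their median log2 ratio was −0.37. Position near the deleted gene and genotype cannot be told apart for Trim30a. Without it, 7 of 35 measured members were lower and their median was −0.55.

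Mx1 and Mx2, the dynamin-like GTPases that block viral replication, were dim. Mx1 had intensities of 65.8 and 78.0 in KO, not well above background on either array, and of 111 and 131 in WT. Mx2 had 75.0 and 92.9 in KO, again not well above background, and 131 and 151 in WT. Against the lowest signal that counts as above background, or the probe's own KO signal where that was higher, Mx1 was at least 1.63-fold lower in KO. Mx2 was at least 1.69-fold lower by the same measure, a bound equal to its fitted fold. The fitted ratios of Mx1 and Mx2 were −0.75 ± 0.01 and −0.75 ± 0.07. The exonuclease Isg20 (−0.42 ± 0.20) and Eif2ak2, the RNA-activated kinase PKR (−0.28 ± 0.16), lay below 0 on both arrays and short of 1.5-fold. Rsad2 (viperin) was not measured. The oligoadenylate synthase and IFIT families, which are antiviral too, are counted apart further on. In the present group, all 6 measured genes (Bst2, Trim30a, Mx1, Mx2, Isg20 and Eif2ak2) lay below 0 on both arrays, against 44.3% of all measured genes. Of these 6, 2 (Bst2 and Trim30a) fell by the rule of size, against 6.88% of all measured genes.

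The ISG15 system had low ratios for both of its members. Isg15 is a ubiquitin-like protein that is attached to other proteins, and Usp18 is the protease that removes it and also restrains signalling from Ifnar2. Usp18 had intensities of 114 and 131 in KO and 382 and 380 in WT, and fell by 1.64 ± 0.15, or 3.12-fold. Isg15 had 284 and 359 in KO and 708 and 665 in WT. Its ratios were −1.32 and −0.89, so it passed 2-fold on the first array only and was not called, with a mean of −1.10 ± 0.30. The WT values lay above the KO values on both arrays for each gene. The probes lie at chr6:121220874-121220933 for Usp18 and chr4:155573649-155573708 for Isg15 (mm9). A second, dimmer Isg15 probe gave −0.23.

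Of the sensors, which detect viral RNA or DNA inside the cell, Ifih1 (the long double-stranded RNA sensor MDA5) fell by 1.41 ± 0.09, or 2.66-fold. Its intensities were 175 and 169 in KO and 445 and 470 in WT, from a probe at chr2:62435507-62435566 (mm9). Its second probe was not well above background and gave −0.10. Dhx58 (LGP2), a relative that modulates Ifih1, had 92.4 and 113 in KO and 186 and 188 in WT, with ratios of −1.01 and −0.74 and a mean of −0.88 ± 0.19, and was past 1.5-fold on both arrays. The third RNA helicase of this family, Ddx58 (RIG-I), stood on the other side of 0 at 0.23 ± 0.00, but its second probe gave −0.38, so the direction of Ddx58 depended on the probe. The Z-nucleic acid sensor Zbp1 had −0.46 ± 0.15 by its brighter probe and −1.26 by the other, which passed 2-fold on both arrays. The DNA sensor Ifi204 had −0.42 ± 0.02.

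The genes of the macrodomain ADP-ribosyltransferases and their partner lie together on chromosome 16, within 139.6 kb by their probes. Dtx3l, a ubiquitin ligase that acts as a pair with Parp9, had intensities of 887 and 948 in KO and 2026 and 1942 in WT, and fell by 1.11 ± 0.11, or 2.16-fold (chr16:35926655-35926714, mm9). Parp14 had 624 and 614 in KO and 1131 and 1167 in WT, for a ratio of −0.89 ± 0.05. Parp9 had −0.55 ± 0.15. All 3 ratios lay below 0 on both arrays, as did 44.3% of all measured genes. Dtx3l was past the rule by its brightest probe and not by its second, which gave −0.21.

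The 2′-5′ oligoadenylate synthases, which make the second messenger that activates RNase L, were near background in both RNAs. Oas1a (−0.59 ± 0.11) and Oas3 (−0.55 ± 0.12) lay below 0 on both arrays, with KO above background on 1 array only. The related Oasl1 and Oasl2 had 0.07 ± 0.32 and 0.06 ± 0.17 with opposite signs on the 2 arrays, and Oas2 was not measured. None of the 4 measured genes of this family was called. The IFIT proteins, which bind viral RNA that lacks the host's cap, were likewise dim: Ifit2 had 125 and 128 in KO against 182 and 200 in WT, for a ratio of −0.60 ± 0.07, and Ifit3 had −0.09 ± 0.15 with signs that differed. Ifit1 was not measured, so 2 of the 3 gave a value and neither was called. Close relatives of Oas1a and Ifit3 exist, so both are uncertain.

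Among the other induced genes, Xaf1, a pro-apoptotic partner of XIAP, had intensities of 225 and 216 in KO and 400 and 411 in WT. Its ratio of −0.88 ± 0.06 was past 1.5-fold on both arrays and short of 2-fold, and its second probe gave −0.34. Ifi44 had −0.33 ± 0.09, Ifi35 −0.04 ± 0.03 and the receptor chaperone Rtp4 0.14 ± 0.02. The chemokine Cxcl10, which draws in T cells through Cxcr3, was not measured. Ifi27l2a was thus the single member of this group to fall by the rule of size.

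**Figure D2:**
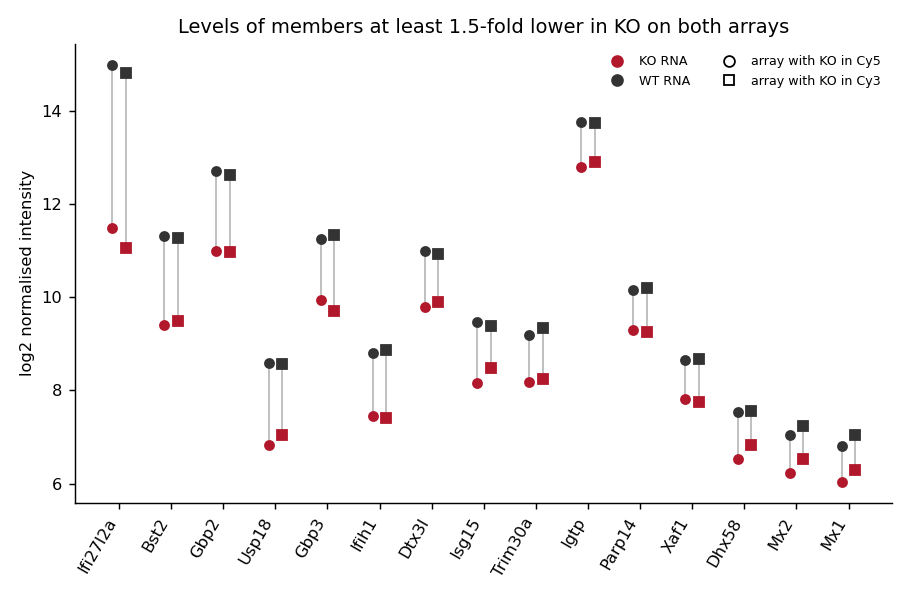
Log2 normalised intensity in KO (red) and WT (black) RNA of the 15 members at least 1.5-fold lower on both arrays; circles are the array with KO in Cy5, squares the array with KO in Cy3, and a line joins the RNAs of 1 array. Levels of different genes come from different probes and are not comparable. On each array the KO value lies below the WT value for each gene, as the choice of these 15 requires.

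None of the 4 transcription factors that carry the interferon signal to these genes was called. Stat2, the type I-specific signal transducer, had intensities of 823 and 816 in KO and 1220 and 1345 in WT, for a ratio of −0.64 ± 0.11. Irf9, its DNA-binding partner, had 2660 and 2372 in KO and 2114 and 2034 in WT, for a ratio of 0.28 ± 0.08. The parts of 1 complex thus lay on opposite sides of 0. With median centring Irf9 turned to −0.30, which is 0.07 above the median of all genes there.

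Irf7, the factor that amplifies type I interferon production, was dim at 106.5 and 92.3 in KO, above background on 1 array only, against 146 and 134 in WT, and had −0.49 ± 0.06. Irf1, a factor induced by interferon gamma, had 6482 and 6096 in KO and 6881 and 7169 in WT, a ratio of −0.16 ± 0.10. Its KO values lay below its WT values on both arrays by less than 1.5-fold.

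The gamma-responsive members were the guanylate-binding proteins Gbp2 and Gbp3 and the immunity-related GTPases Igtp and Irgm1, which act together on membranes of vacuoles that hold intracellular parasites and bacteria. Gbp2 had intensities of 2035 and 1992 in KO and 6648 and 6302 in WT, and fell by 1.69 ± 0.03, or 3.22-fold. Gbp3 had 986 and 832 in KO and 2429 and 2577 in WT, and fell by 1.47 ± 0.23, or 2.76-fold. Their probes lie 64.7 kb apart on chromosome 3, at chr3:142300719-142300778 and chr3:142236032-142236091 (mm9). Igtp (Irgm3) had 7075 and 7598 in KO and 13745 and 13697 in WT. Its ratio of −0.90 ± 0.08, or 1.87-fold lower, was alike on both arrays and short of the rule (chr11:58020927-58020986, mm9).

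Irgm1, which regulates the other immunity-related GTPases, went the other way. Its intensities were 1329 and 1452 in KO and 1190 and 1164 in WT, for a ratio of 0.24 ± 0.11, and its second probe gave 0.56. Ifi47 (Irg47), a GTPase 231.3 kb from Irgm1 on chromosome 11, had 10115 and 10118 in KO and 7811 and 8353 in WT, for a ratio of 0.32 ± 0.07. With median centring both turned below 0, to −0.31 for Irgm1 and −0.30 for Ifi47, and lay 0.07 above the median of all genes. Rtp4 and Ddx58 turned below 0 there as well.

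Set side by side, the 4 gamma-responsive members had 2 that fell (Gbp2 and Gbp3), 3 below 0 on both arrays and a median of −1.19. Of all measured genes, 6.88% fell and 44.3% lay below 0 on both arrays. The 36 other members, called type I here, had 32 measured, of which 6 fell, 25 lay below 0 on both arrays and 4 above, and the median was −0.55. The gamma-responsive minus the type I median was thus −0.64, and it was −0.36 with a normexp offset of 1 and −0.25 with the software's processed signals or the deposited log ratios. This difference rested on how Ifi47 and Irf1 were assigned. Both also respond to interferon gamma, as does Cxcl10, which was not measured. With these 3 moved to the gamma-responsive side, the medians were −0.53 over 6 measured genes and −0.57 over 30. The difference was then 0.04 in the other direction. Genes are not replicates, and with 4 genes on 1 side no test was made.

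**Figure D3:**
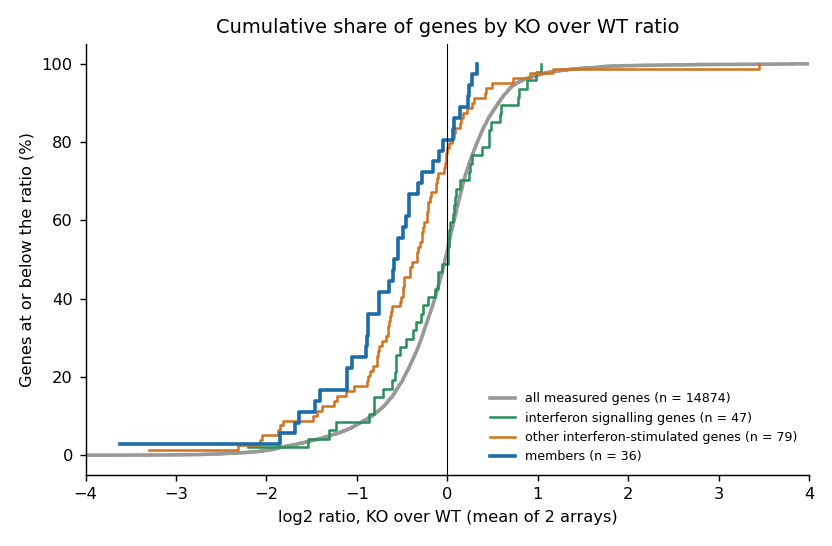
Cumulative share of genes (percent) at or below each log2 ratio of KO over WT, as the mean of 2 arrays, for the 36 measured members, 79 other interferon-stimulated genes, 47 interferon signalling genes and all 14874 measured genes. The members' curve lies to the left of that of all genes, with a median of −0.57, and the signalling genes follow that of all genes over much of its length, with a median of 0.00.

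A wider list of 92 other interferon-stimulated genes had 79 measured. Of these, 13 (16.5%, beside 6.88% of all measured genes) fell and 2 rose, 57 lay below 0 on both arrays and 15 above, and the median was −0.34. Of all measured genes, 44.3% lay below 0 on both arrays and 38.6% above. Among further guanylate-binding proteins, Gbp5 fell by 1.87 ± 0.10, with 293 and 366 in KO against 1125 and 1280 in WT. All 7 further Gbp genes lay below 0 on both arrays, with a median of −0.51, so the low side held Gbp2, Gbp3 and these 7. Of 5 other GTPases, Irgm2, Iigp1 and Gvin1 lay below 0 on both arrays and Tgtp1 and Tgtp2 above (Tgtp2 stood at −0.20 with median centring), and none was called.

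In antigen processing for MHC class I, the immunoproteasome subunit Psmb9 fell by 1.82 ± 0.09 and the peptide transporter Tap1 by 1.39 ± 0.14. All 7 genes of that group lay below 0 on both arrays, against 44.3% of all measured genes, with a median of −0.48. The inflammatory caspases Casp1 (−1.25 ± 0.03) and Casp4 (−1.85 ± 0.17), the surface antigen Ly6a (−1.44 ± 0.13), the RNA helicase Mov10 (−1.12 ± 0.06) and the chemokine Ccl5 (−1.22 ± 0.26) fell too. So did Phf11a (−2.31 ± 0.22), Phf11b (−2.05 ± 0.00) and Phf11d (−2.07 ± 0.29), copies of 1 family whose probes may share targets. The tripartite-motif genes Trim12a (−3.30 ± 0.25) and Trim34a (−1.48 ± 0.06) fell and lie 2.39 and 2.35 Mb from Lamtor1. Without the 6 measured genes of the list within 3 Mb of Lamtor1, 11 of 73 were lower, 2 higher and the median was −0.31.

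The 2 that rose were Ifitm1, a membrane protein that restricts virus entry, at 8924 and 8033 in KO against 754 and 806 in WT (3.44 ± 0.18, 10.9-fold higher), and Samd9l (1.16 ± 0.03, and 0.64 with median centring). The neighbouring family members Ifitm2 (−0.85 ± 0.01) and Ifitm3 (−0.64 ± 0.12) lay below 0, so Ifitm1 stood on the opposite side of its family.

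Of 57 genes for interferon ligands, receptors, kinases, factors, feedback and nucleic acid sensing, 47 were measured, 4 (8.51%, near the 6.88% of all measured genes) fell and 0 rose, and the median was 0.00. 5 of the 57 also stand in the wider list. The ligand of the type II pathway, Ifng, had intensities of 200 and 171 in KO and 105 and 83.6 in WT, for a ratio of 0.98 ± 0.08 that passed 2-fold on 1 array only and was 2.13 with the software's processed signals. The 7 genes for type I and III interferons on the array under the listed names (Ifnb1, Ifna1, Ifna2, Ifna4, Ifne, Ifnk and Ifnl3) were not measured.

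The receptor chains did not go one way. Ifngr1, the ligand-binding chain for interferon gamma, fell by 1.54 ± 0.06, with 2568 and 2556 in KO against 7237 and 7647 in WT. Its partner Ifngr2 had 0.78 ± 0.19. Ifnar2 had −0.81 ± 0.05 and Ifnar1 0.46 ± 0.12, so each receptor had 1 chain below and 1 above 0, although Ifnar1 stood at −0.02 with median centring. Among the kinases, Jak2 had −0.81 ± 0.18, Jak1 0.79 ± 0.10 and Tyk2 0.27 ± 0.12, the last turning to −0.13 with median centring.

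Stat4, through which IL-12 and type I interferon drive interferon gamma in T cells, fell by 2.20 ± 0.17, and Batf, an AP-1 factor of T cell differentiation, by 1.23 ± 0.08. The DNA sensor Cgas fell by 1.31 ± 0.23. The feedback inhibitors Socs1 (0.01 ± 0.14) and Socs3 (0.38 ± 0.15), which are themselves induced by cytokine signals, were not called. With median centring Socs1 turned to −0.59 and Socs3 to −0.21, or −0.22 and 0.17 relative to all genes. Thus 4 of these genes, Ifngr1, Stat4, Batf and Cgas, were past the rule.

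**Figure D4:**
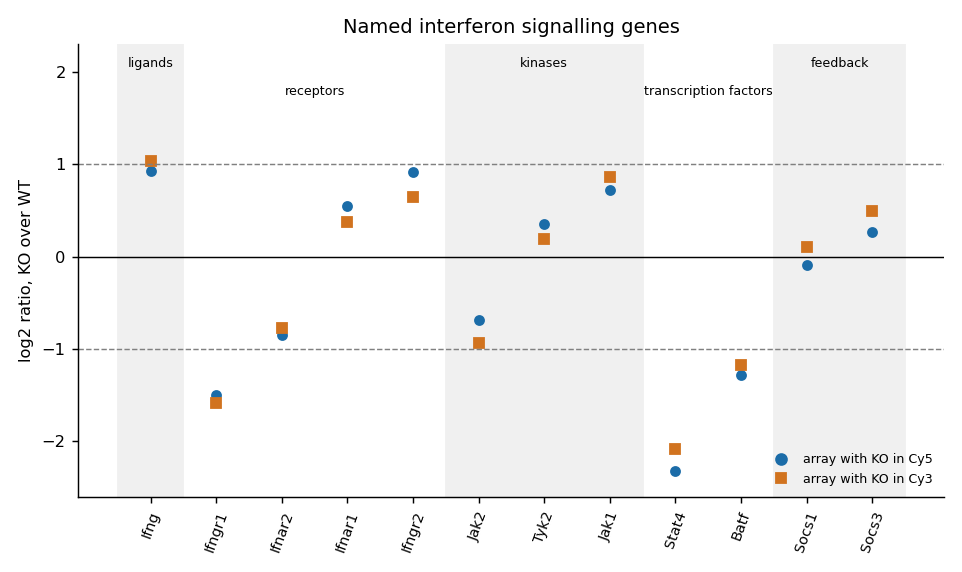
Log2 ratio of KO over WT on each array of the measured interferon ligand, receptor, kinase, transcription factor and feedback genes named in the text; circles are the array with KO in Cy5, squares the array with KO in Cy3, and dashed lines mark 2-fold. Ifngr1, Stat4 and Batf lie past the lower line on both arrays, while Ifngr2, Ifnar1 and Jak1 lie above 0, of which Ifnar1 turns to −0.02 with median centring.

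Markers of several cell types also differed between the RNAs. The T cell list had 10 of 10 measured. Cd4 (−1.18 ± 0.05), Cd5 (−1.12 ± 0.12) and Trat1 (−2.69 ± 0.03) were lower in KO, which is 3 of 10, beside 6.88% of all measured genes. The other 7 were not called, namely Cd3d (−0.79), Cd3g (−0.49), Cd2 (−0.89), Cd3e (0.09), Cd28 (0.04), Cd247 (0.04) and Lck (0.16). The list's summed intensity was 67704 and 63898 in KO against 92078 and 91034 in WT. The list for CD8 T and NK cells had 5 of 8 measured genes higher (Gzma, Xcl1, Klrc1, Klrd1 and Klrb1c), beside 2.46% of all measured genes. Its summed intensity was 21292 and 19351 in KO against 1527 and 1593 in WT. Gzma made up most of this sum, and without it the sums were 4397 and 4328 against 1202 and 1186. The CD8 chains were not called, with Cd8a at 0.67 and Cd8b1 at −0.55. Prf1 (0.41) was not called either, and Ncr1 and Klrk1 were not measured. The myeloid list had 5 of 9 measured genes higher (Fcer1g, S100a9, S100a8, Tyrobp and Lyz1), beside 2.46% of all measured genes. Itgam (0.70), Lyz2 (0.62), Csf1r (0.40) and Cst3 (−0.49) were not called, and Cd14 was not measured. The list's sums were 17498 and 15819 in KO against 9610 and 8812 in WT. Without Itgam the sums were 8189 and 7544 against 4083 and 3526.

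The list for plasmacytoid dendritic cells, which holds Bst2, had 7 of 10 measured. Ccr9 was higher, at 3.73 ± 0.10, while Bst2 and Cox6a2 were lower, and the median log2 ratio of the list was −0.19. The sums were 29811 and 30464 in KO against 19307 and 19870 in WT. Most of that gap was Siglech, which was not called (0.82), and without it the sums were 6827 and 6481 against 6391 and 6178. The B cell list had 2 of 6 measured and neither called, with Cd79a not well above background, and sums of 770 and 743 against 658 and 605. The gamma-delta T cell list had 2 of 4 measured, neither called, and sums of 265 and 248 against 254 and 216. The part of other cells in the members' ratios was not tested.

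The background correction moved the ratios of several dim members. With the scanner software's own processed signals, which subtract the background without an added offset, 15 members were lower in place of 8. Dhx58, Ifi44, Ifit2, Mx1, Mx2, Oas1a and Oas3 were added, and all 8 called members remained. Usp18 moved from −1.64 to −2.73, Ifih1 from −1.41 to −1.95 and Dhx58 from −0.88 to −1.70. Ifi27l2a, whose signals lie far above background, had −3.62 and −3.64. For Mx1 and Mx2, with KO not above background, only the bounds given above hold.

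**Figure D5:**
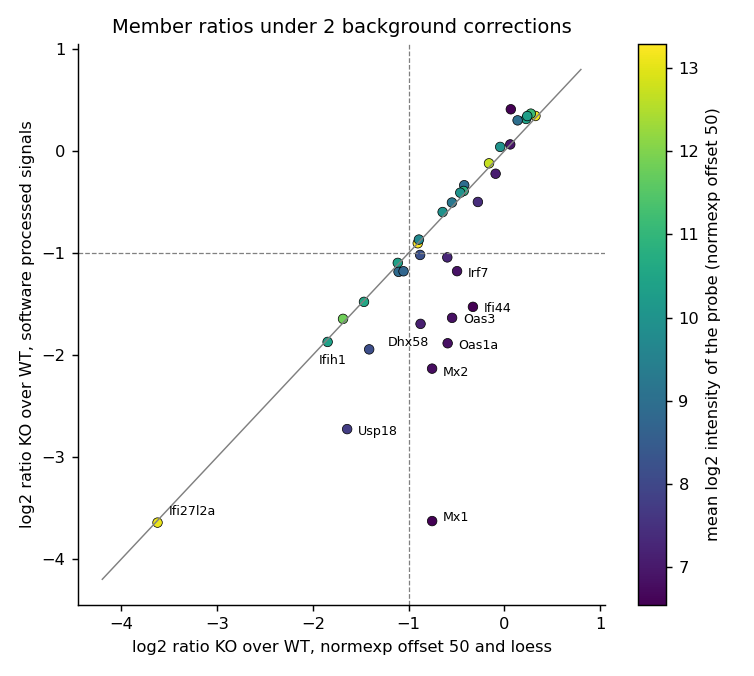
Log2 ratio of KO over WT of the 36 measured members from normexp with an offset of 50 and loess (horizontal) against the scanner software's processed signals (vertical), as means of 2 arrays, coloured by the log2 mean intensity of the probe; the line is equality and dashed lines mark 2-fold lower. Bright probes lie near the line. Dim ones spread more widely: Mx1, Mx2 and Usp18 lie below it, Oasl1 lies above it and Oasl2 on it.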

How the data were processed

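Each of the 2 arrays held KO and WT RNA of the same pair of extracts, with dyes exchanged, and both were counted as 1 replicate. The scanner files, as deposited, give each spot's mean intensity and local background intensity per channel, uncorrected. A second, processed intensity in them has the background removed and the dyes balanced by the software, per the file headers. The file headers name Agilent Feature Extraction 10.7.3.1 and the submitters' processing notes 10.5.1.1, which was not settled. The authors' deposited value table gives Cy5 over Cy3 as log10 ratios; each of its 44397 values per array equalled the software's log ratio within 1e-09, with a median of 0.

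Mean signals were corrected with normexp (offset 50) and normalised by loess within array (limma 3.58.1, R 4.3.3). The 1377 control spots had no weight in the loess. Spots marked as outliers (206 and 214) took part in both steps and were left out when the spots of a probe were averaged. The labelled dyes gave each ratio its direction, KO over WT, and the 2 arrays were averaged. Normalised intensities are per channel after Aquantile normalisation. This offset makes the ratios of dim probes smaller. A bound ("at least N-fold") divides the mean of the bright RNA by a floor, which on each array is the lowest signal well above background or, if higher, the signal of the probe itself; the exchanged dyes balance dye bias in it.

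Probes were named by accession through RefSeq GRCm38.p6 (26051 probes), by symbol (3193) or synonym (930), and 9249 carry the array's own name. Positions of probes are on mm9, as in the files, and those of promoters on GRCm38.p6; none was converted. Exon and UTR annotation of probes was not used here. Tables were made with Python 3.11.15, and the calculation was tested on simulated data.

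Every member is named with its ratio or as not measured; intensities are given for members past the rule of size or 1.5-fold, the gamma-responsive members and the 4 transcription factors, and a few others were added after their values were seen. Of the other lists, genes past the rule and main pathway parts are named. Some genes of the other lists are counted there and not reported here by name. Members and lists were chosen with earlier results of these data known. Alternatives covered background correction, centring, single arrays, the filter, the probe, the fold and the assignment of members.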

Additional observations from a re-analysis of the deposited data

How the results depend on the processing

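All 8 called members kept their direction under every alternative run, and 27 of the 36 measured members did. Irf9, Ddx58, Oasl1, Oasl2, Ifit3, Ifi35, Rtp4, Ifi47 and Irgm1 did not. For the 8, the single arrays and the filters on dim probes could not change the direction, since the call asks for 2-fold on each array. With the software's processed signals, and identically with the deposited log ratios, 15 members and 13 type I members were lower, the medians were −0.96 for members, −0.94 for type I, −0.43 for the other interferon-stimulated genes and 0.068 for signalling genes, the gamma-responsive minus type I difference was −0.25, 3 signalling genes were higher, 867 of all genes were higher and 1614 lower with a median of 0.04, and Lamtor1 had −2.18. With a normexp offset of 1, 11 members were lower, the medians were −0.88 (members), −0.81 (type I) and −0.43 (other), the difference was −0.36, 2 signalling genes and 609 of all genes were higher, the median of all genes was 0.00 and Lamtor1 had −2.17. Without background subtraction, members had −0.64, type I −0.60 and Lamtor1 −2.02.

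With median centring, the medians were −0.86 (members), −0.84 (type I), −1.78 (gamma-responsive), −0.81 (other), −0.59 (signalling) and −0.37 (all genes), the difference was −0.94, 1 other gene and 111 of all genes were higher and Lamtor1 had −2.39; relative to all genes the members stood at −0.48, type I at −0.46, gamma-responsive at −1.40, other at −0.43 and signalling at −0.22, against −0.55, −0.52, −1.16, −0.32 and 0.03 with loess. Trim30a was no longer called there and Isg15 was. From the array with Cy3-labelled KO only, members had −0.61, type I −0.55, all genes −0.05, and 1 signalling gene was higher. From that with Cy5-labelled KO only, type I had −0.56, 4 other and 2 signalling genes were higher, signalling had −0.066 and 556 of all genes were higher; Dhx58 and Isg15 were then called, for 10 members.

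Without the filter on dim probes, members had −0.52, type I −0.48, other −0.28 and all genes 0.00, and with probes above background in both RNAs all genes had 0.00. At 1.5-fold, 15 members and 12 type I members were lower. With Ifi47, Irf1 and Cxcl10 moved, type I had −0.57, gamma-responsive −0.53 and the difference was 0.038. With the median over a gene's probes, signalling had −0.059, and Dtx3l and Ifih1 were no longer called, which left 6 members. The cause of these shifts was not tested. Depth here is signal over background: 29 of the 40 members were well above background in both RNAs on both arrays. No paired analysis was possible because each genotype has a single extract.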
